A study of Mus musculus with 6 samples.

Results

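The genes described here encode the laminins, nidogens and heparan sulfate proteoglycans of the basement membrane: the laminin chain genes Lama4, Lama5, Lamb1, Lamb2 and Lamc1, the nidogen genes Nid1 and Nid2, and the proteoglycan genes Hspg2 (perlecan) and Agrn (agrin). They were taken by symbol, and 9 of the 55334 rows of the deposited count table matched. All 9 passed the filter on low counts, which left 16049 genes for testing. RNA was measured in Lewis lung carcinoma cells, a mouse lung cancer line that carried green fluorescent protein (GFP), in 2 groups of 3 libraries. The Scramble group had a scrambled guide RNA and the JAG2KO group a guide RNA against Jag2, which encodes a Notch ligand. Cells of both groups were grown as flank tumours in mice, freed with Liberase and sorted as GFP-positive cells negative for CD45 and DAPI. Mouse strain and age, and the clonal or pooled state of each cell population, were not given in the sources used here. Nothing in the labels ties the libraries to separate mice, and p-values therefore reflect the spread between these libraries alone, possibly a technical one.

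A basement membrane is a thin sheet of matrix that underlies epithelia and vessel linings and surrounds muscle, fat and nerve sheath cells. Laminins, cross-shaped trimers of an alpha, a beta and a gamma chain, polymerise on the cell surface through integrins and dystroglycan. Nidogens bridge the laminin network to type IV collagen, and perlecan and agrin add heparan sulfate chains that hold growth factors. In tumours the sheet is both a barrier to invasion and a ligand for the cancer cells' receptors.

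The libraries held 37036772 to 43923565 counts. Jag2 itself measured 1.52, 1.10 and 1.02 CPM (counts scaled to a common library size) in Scramble replicates 1, 2 and 3 and 0.514, 0.799 and 1.11 CPM in the JAG2KO libraries, which are named JagKO2, JagKO3 and JagKO4 after their columns. The Jag2 groups overlapped, and an edited gene can still be transcribed, so this level does not check the labels. Of markers of the labelled lung origin, Nkx2-1 had 0 counts in every library, which allows up to 0.0811 CPM at 3 counts in the shallowest, and Epcam and Cdh1 stayed at or under 1.45 CPM. Of 5 tested epithelial and lung markers 0 were higher and 2 lower, beside 11.8% higher and 12.5% lower of all tested genes. The lower 2 were the keratin genes Krt8 (124 to 4.13 CPM) and Krt19 (1.38 to 0.470 CPM). The 3 not called had log2 fold changes from -0.50 to 0.20. The list summed to 391 to 399.6 CPM in Scramble and 284 to 339 CPM in JAG2KO. That fall is smaller than the fall of Krt8 alone, so the other markers together did not fall. Markers of macrophages summed to 61.4 to 70.8 CPM in Scramble and 94.9 to 113.8 CPM in JAG2KO. Markers of pericytes and fibroblasts summed to 1233 to 1331 CPM in Scramble and to 2336, 1546 and 1455 CPM in JagKO2, JagKO3 and JagKO4. In bulk RNA, fewer cells of a type and less RNA per cell cannot be told apart.

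Agrn and Nid2 rose and Lamb1 fell in JAG2KO, and the other 6 genes did not pass the test (edgeR quasi-likelihood test, Benjamini-Hochberg adjusted p under 0.05 over all tested genes). Those 2 higher genes of 9 stand beside 11.8% of all tested genes called higher, the 1 lower gene beside 12.5% called lower, and the 3 together beside 24.3% called in either direction. The CPM values of the groups lay wholly apart for these 3 genes, against 40.3% of all tested genes (19.5% with JAG2KO higher and 20.9% with JAG2KO lower). The median log2 fold change (JAG2KO over Scramble, log2 change below) was -0.07 over the 9 genes and 0.00 over all tested genes. JagKO2 was the highest of the 3 JAG2KO libraries for 9 of the 9 genes, which held for 39.1% of all tested genes.

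**Figure D1:**
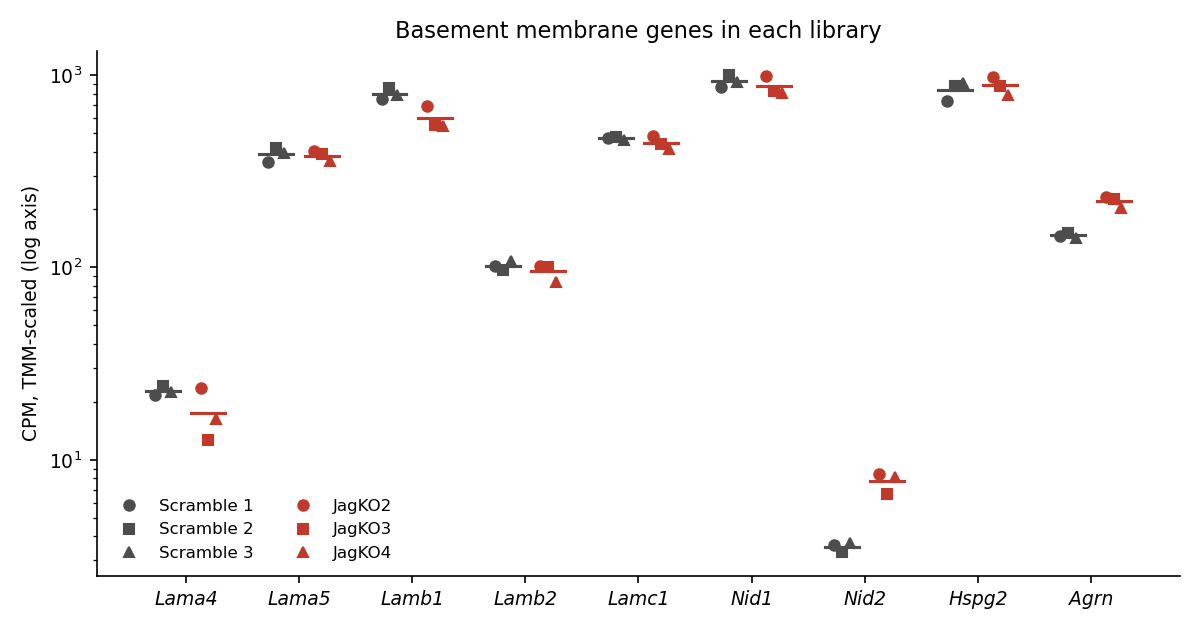
CPM (TMM-scaled, log axis) of the 9 basement membrane genes in each library, with Scramble in grey, JAG2KO in red, a symbol per library and a bar at the group mean. Symbols shared by a grey and a red library do not pair them. Only for Lamb1, Nid2 and Agrn do the grey and red points lie apart.

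Among the alpha chains, which carry the cell-binding end of a laminin, Lama5 was above Lama4 per length, at a mean of 33.8 CPM per kb of exon against 1.67 for Lama4, or 3.34 for Lama4 with its longest transcript as length. It encodes the chain of most epithelial and vessel laminins and measured 353, 415 and 394 CPM in Scramble and 403, 386 and 355 CPM in JagKO2, JagKO3 and JagKO4. The groups overlapped fully, with a log2 change of -0.02 (SE 0.07, edgeR adjusted p = 0.864). Lama4, a short alpha chain typical of vessels and mesenchyme, measured 21.8, 24.3 and 22.6 CPM in Scramble and 23.6, 12.6 and 16.3 CPM in JAG2KO. JagKO2 lay inside the Scramble range while the other 2 JAG2KO libraries lay below it. The log2 change of Lama4 was -0.39 (SE 0.18, edgeR adjusted p = 0.138), and without JagKO2 it was -0.66 (edgeR adjusted p = 0.00157), a call shared by 12.5% of all genes tested without that library, where 11.5% were higher. Without JagKO3, the lowest library, it was -0.20 (edgeR adjusted p = 0.379). Without a low-count filter Lama4 was also called lower (-0.37, edgeR adjusted p = 0.0124), beside 7.19% of genes called lower and 7.92% higher in that fit. JagKO2 is also the library with the highest pericyte and fibroblast marker sum, and the part of those cells in the Lama4 value was not tested.

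Of the beta chains, Lamb1 fell and Lamb2 did not pass the test. Lamb1, the beta chain of most laminins outside muscle and kidney, measured 753, 857 and 784 CPM in Scramble and 687, 553 and 543 CPM in JAG2KO. Every JAG2KO library lay below every Scramble library. The means were 798 ± 53.3 and 594 ± 80.5 CPM (SD, n = 3 each), a log2 change of -0.43 (SE 0.09, edgeR adjusted p = 0.00479). Lamb2, the beta chain of synaptic, kidney and mature vessel laminins, measured 102, 96.8 and 108 CPM in Scramble and 102, 101 and 84.4 CPM in JAG2KO. These groups overlapped, and the log2 change of Lamb2 was -0.09 (SE 0.08, edgeR adjusted p = 0.439).

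Lamc1, the gamma chain shared by most laminins and the one that binds nidogen, varied least of the set relative to its mean in Scramble. It measured 469, 477 and 460 CPM there and 484, 439 and 413 CPM in JAG2KO, which spanned the Scramble range. The log2 change was -0.07 (SE 0.07, edgeR adjusted p = 0.476). By the root mean square difference of log2 CPM centred over the 6 libraries, the 3 genes most like Lamc1 were Rundc1 (0.0170), Camk1 (0.0178) and Smap2 (0.0207), on chromosomes 11, 6 and 4. Their log2 changes were -0.06, -0.05 and -0.06.

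Of the nidogens, the abundant Nid1 did not pass the test and the scarce Nid2 rose. Nid1, the main nidogen of most tissues, measured 870, 1005 and 919 CPM in Scramble and 985, 830 and 810 CPM in JAG2KO. Its groups overlapped, with a log2 change of -0.09 (SE 0.08, edgeR adjusted p = 0.473). Nid2, the paralogue that is richer in vessels, measured 3.60, 3.33 and 3.69 CPM in Scramble and 8.46, 6.68 and 8.17 CPM in JAG2KO. The lowest JAG2KO library was above the highest Scramble library. Its means were 3.54 ± 0.190 and 7.77 ± 0.956 CPM (SD, n = 3 each), a 2.20-fold rise (log2 change 1.13, SE 0.17, edgeR adjusted p = 0.000557).

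Nid2 rested on 145 to 354 counts per library. Its exons overlap 437 bases of Rtraf on the opposite strand, 8.45% of the Nid2 exon length, with the strand setting of the counting not given in the sources used here. Rtraf measured 83.2 to 85.4 CPM in Scramble and 80.1 to 99.7 CPM in JAG2KO, with a log2 change of 0.05 (edgeR adjusted p = 0.727). The 13 endothelial markers split into 6 higher, 1 lower and 6 not called, beside 11.8% of all tested genes called higher and 12.5% lower. Vwf (log2 change 1.78), Pecam1 (1.17) and Cdh5 (0.82) were among the higher. Of 13 pericyte and fibroblast markers 6 were higher and 1 lower, with Rgs5 at 1.94, Pdgfrb at 0.82 and Fap at -2.40. The endothelial list summed to 144 to 147 CPM in Scramble and 131 to 155 CPM in JAG2KO, a sum led by Eng, which fell. Without JagKO2, the library richest in pericyte and fibroblast markers, the Nid2 log2 change was 1.07. In JagKO3 and JagKO4 that marker list still summed to 1546 and 1455 CPM, above the 1233 to 1331 CPM of Scramble. The part of endothelial cells, pericytes and fibroblasts in the Nid2 level was not tested.

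Of the proteoglycans, perlecan RNA did not pass the test and agrin RNA rose. Hspg2 measured 729, 878 and 914 CPM in Scramble and 978, 881 and 790 CPM in JAG2KO, with overlapping groups and a log2 change of 0.07 (SE 0.09, edgeR adjusted p = 0.632). Agrn, known for clustering acetylcholine receptors at the nerve-muscle junction and made by many epithelia and tumours, measured 146, 152 and 143 CPM in Scramble. It measured 231, 228 and 205 CPM in JagKO2, JagKO3 and JagKO4, all above the Scramble values. The means of 147 ± 4.61 and 221 ± 14.5 CPM (SD, n = 3 each) gave a log2 change of 0.59 (SE 0.07, edgeR adjusted p = 6.01e-05), a rise of 50.7%. This was the smallest adjusted p of the set.

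GC content and transcript length matter for this set, whose transcripts are long and partly rich in GC. The smooth trend of log2 CPM on both, fitted per library, differed between the groups by 0.26 for Hspg2, 0.23 for Lama5, 0.18 for Agrn and 0.14 for Lamc1, each higher in JAG2KO. With the trends removed, Agrn, Nid2 and Lamb1 kept their calls at log2 changes of 0.41, 1.07 and -0.52. Lama5 and Lamc1 were then called lower at -0.26 and -0.22 (edgeR adjusted p = 0.0374 and 0.0287), so 3 of 9 genes were called lower, against 13.7% of all tested genes called lower and 11% higher in that fit. Hspg2 turned to -0.19 (edgeR adjusted p = 0.204). Lamb2 and Nid1 moved to -0.21 and -0.19 (edgeR adjusted p = 0.0531 and 0.113). The values near 0 of these 5 genes thus depend on leaving the trends in.

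**Figure D2:**
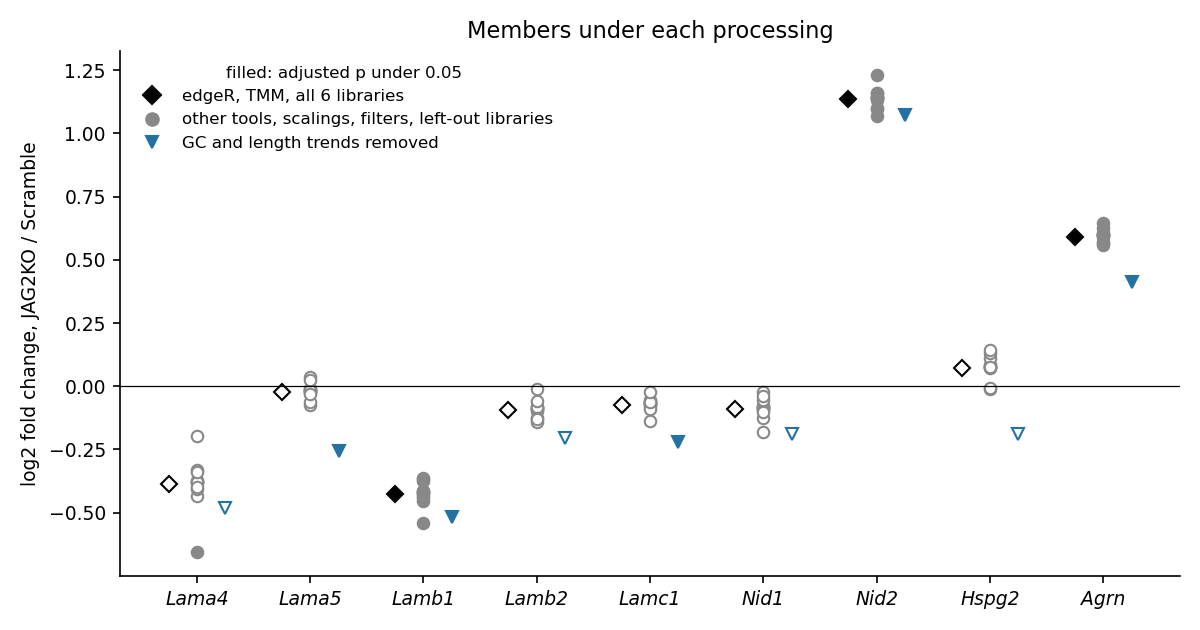
Log2 fold change of each gene by edgeR with all 6 libraries (black diamonds), under other tools, scalings, filters and with a library left out (grey circles), and with GC and length trends removed (blue triangles). Filled symbols have an adjusted p under 0.05. Lamb1, Nid2 and Agrn are filled throughout. The GC and length fit lies below all others for Lama5, Lamb2, Lamc1, Hspg2 and Agrn, and narrowly so for Nid1.

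Divided by exon length, levels can be set between genes. In CPM per kb of exon over all 6 libraries, Nid1 was highest at 130.1, followed by Lamb1 at 70.2, Hspg2 at 60.2 and Lamc1 at 55.3. The ranges of Lamb1 and Hspg2 overlapped, as did those of Hspg2 and Lamc1. Lama5 followed at 33.8, below every Lamc1 value. Agrn at 19.8 and Lamb2 at 16.3 came next with overlapping ranges, and Lama4 at 1.67 and Nid2 at 1.09 were lowest, also overlapping. With the longest transcript as length Lama4 was at 3.34 and Lamb1 at 120.4, against 60.7 for Hspg2. The summed exons of Lama4 and Lamb1 are longer than their longest transcript.

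**Figure D3:**
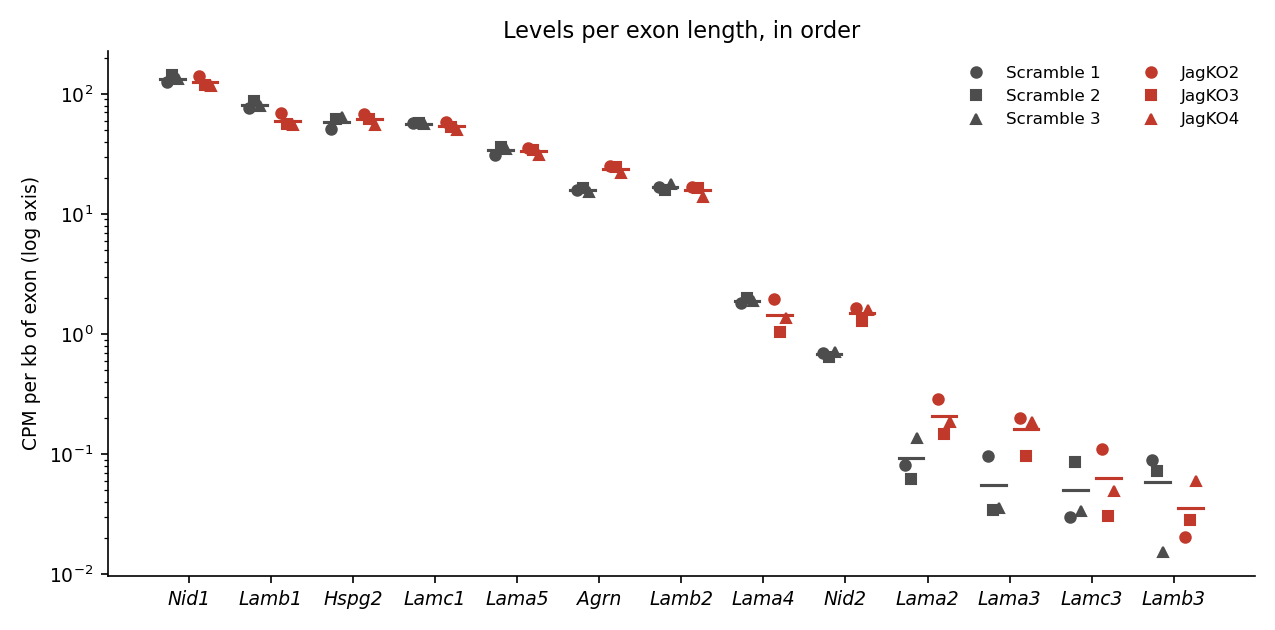
CPM per kb of annotated exon (log axis) in each library for the 9 genes and the other laminin chain genes Lama2, Lama3, Lamb3 and Lamc3, in falling order of the mean; grey is Scramble, red JAG2KO, bars are group means. The 9 genes span Nid1 at 130.1 to Nid2 at 1.09, and the 4 other chains plotted lie below them.

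Ratios taken within a library do not depend on the scaling between libraries. The 6 ratios of CPM per kb were compared by an exact two-sided permutation test, which cannot go below p = 0.1 with 3 against 3. Each ratio without overlap between the groups holds Agrn, Nid2 or Lamb1, genes already called, so it partly restates those calls. Agrn per Hspg2 was 0.309, 0.266 and 0.241 in Scramble and 0.365, 0.398 and 0.399 in JAG2KO, with no overlap (mean log2 difference 0.52, exact permutation p = 0.1, adjusted 0.15). Nid2 per Nid1 was 0.00556, 0.00444 and 0.00539 in Scramble and 0.0115, 0.0108 and 0.0135 in JAG2KO (difference 1.22, exact permutation p = 0.1, adjusted 0.15). Every JAG2KO library thus had the higher nidogen ratio, and Nid1 made up most nidogen RNA in all 6 libraries.

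Beta chains per gamma chain, as Lamb1 plus Lamb2 over Lamc1, were 1.64, 1.77 and 1.74 in Scramble and 1.47, 1.36 and 1.37 in JAG2KO, again without overlap (log2 difference -0.29, exact permutation p = 0.1, adjusted 0.15). This ratio is higher with the longest transcript as length (log2 difference -0.31). Lamb1 then had a mean of 120.4 CPM per kb and Lamc1 of 60.0. Lamb2 per Lamb1 was 0.221, 0.184 and 0.224 in Scramble and 0.243, 0.297 and 0.253 in JAG2KO (log2 difference 0.33, exact permutation p = 0.1, adjusted 0.15). Alpha chains per gamma chain stayed between 0.579 and 0.667 over all libraries (log2 difference 0.04, exact permutation p = 0.9, adjusted 0.9). Lama5 per Lama4 ranged from 17.2 to 18.5 in Scramble and from 18.1 to 32.4 in JAG2KO, with JagKO2 at 18.1 inside the Scramble range (log2 difference 0.41, exact permutation p = 0.3, adjusted 0.36). That difference was 0.19 without JagKO3. With the longest transcript as length the ratio itself is lower in every library by the same factor.

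**Figure D4:**
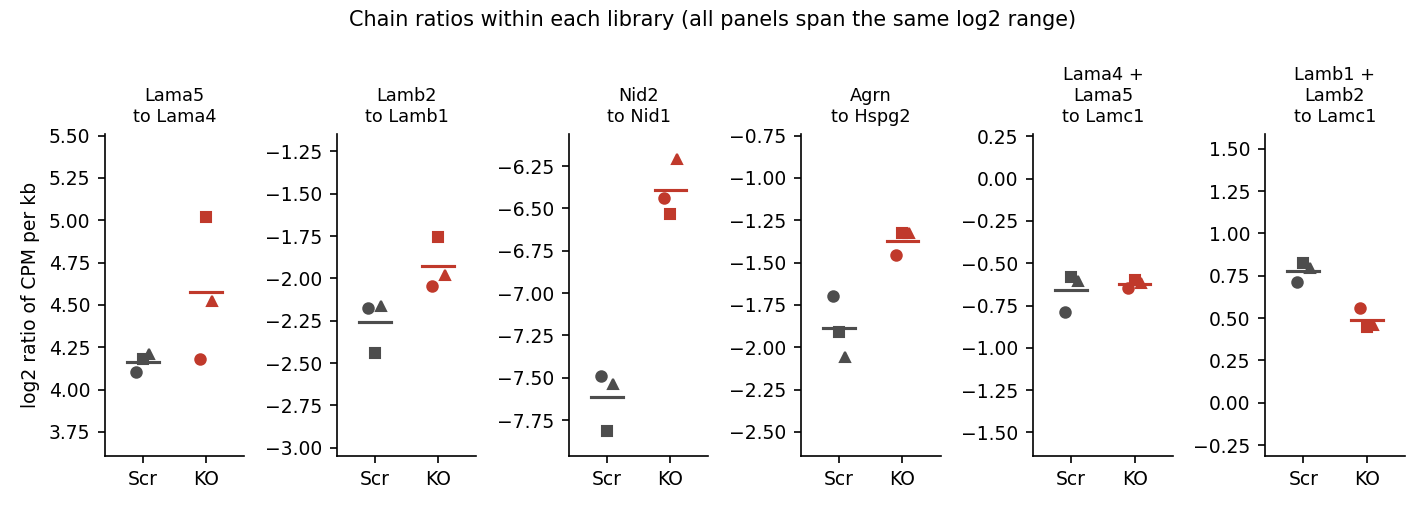
Log2 ratio of CPM per kb for 6 pairs or sums of chains, 1 panel each, with Scramble (Scr, grey) and JAG2KO (KO, red), a symbol per library and a bar at the group mean. Agrn to Hspg2, Nid2 to Nid1, Lamb2 to Lamb1 and the beta to gamma ratio do not overlap between the groups, and each holds a called gene. The alpha to gamma ratio and Lama5 to Lama4 overlap.

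The 9 genes lie on 8 chromosomes (coordinates from GENCODE M21, GRCm38). Of all 11493 genes at a mean of 2 CPM or more, 1645 were called higher and 1779 lower. Lamb1 is on chromosome 12, 31265234 to 31329644, where 30 of the 407 such genes were called higher and 133 lower. Of the 30 such genes nearest to it, 4 were higher and 10 lower. Their median was -0.09, against -0.43 for Lamb1. Agrn and Hspg2 share chromosome 4, at 156165290 to 156197488 and 137468769 to 137570630, where 104 of 676 genes were higher and 121 lower. The 19 genes nearest to Agrn had a median of 0.07. Nid2 lies on chromosome 14, 19751265 to 19811787, where 97 of 386 genes were higher and 21 lower. The median of its 30 neighbours was 0.09, against 1.13 for Nid2. Lamb1, Agrn and Nid2 were picked here because they were called, so a larger change than the median of their neighbours largely follows from that choice. A part of neighbouring shifts in their values was not tested.

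Lamb1 and Agrn, the called genes with a promoter entry, are shown beside Lamb2 and Hspg2, genes of like function that did not pass the test. The sequences are from RefSeq (GRCm38.p6), 5′ to 3′ on the strand of the gene, and stop before the first annotated exon. Capitals mark TGGGAA on either strand (reverse complement TTCCCA), the core bound by RBPJ, the DNA-binding factor of the Notch pathway.
Lamb1 (plus strand, chr12:31265043-31265233): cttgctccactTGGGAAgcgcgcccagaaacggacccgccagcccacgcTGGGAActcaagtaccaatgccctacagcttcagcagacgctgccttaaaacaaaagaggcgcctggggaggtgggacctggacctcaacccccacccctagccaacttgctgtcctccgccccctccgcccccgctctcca
Lamb2 (plus strand, chr9:108479612-108479735): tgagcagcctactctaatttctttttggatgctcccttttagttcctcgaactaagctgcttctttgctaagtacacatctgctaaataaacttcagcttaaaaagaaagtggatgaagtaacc
Agrn (minus strand, chr4:156197489-156197738): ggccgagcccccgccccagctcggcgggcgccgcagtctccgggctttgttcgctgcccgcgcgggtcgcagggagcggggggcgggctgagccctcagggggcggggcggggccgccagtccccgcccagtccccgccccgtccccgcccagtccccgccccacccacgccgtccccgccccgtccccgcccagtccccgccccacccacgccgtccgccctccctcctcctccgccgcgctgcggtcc
Hspg2 (plus strand, chr4:137468553-137468768): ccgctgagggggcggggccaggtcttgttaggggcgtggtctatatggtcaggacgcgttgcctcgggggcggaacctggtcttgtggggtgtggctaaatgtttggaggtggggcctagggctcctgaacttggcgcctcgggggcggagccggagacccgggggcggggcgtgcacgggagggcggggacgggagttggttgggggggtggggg
The Lamb1 stretch holds 2 copies of TGGGAA and the other 3 stretches 0. In the whole 300-base windows, which run on into the first exon, the counts are 2 for Lamb1, 1 for Hspg2 and 0 for Lamb2 and Agrn, and 25.6% of 32851 mouse promoter windows hold it. For Agrn the window at the annotated gene start is shown, and a further RefSeq window inside the gene holds 0 copies. Among members not printed, Nid1, which was not called, has 1 copy and Lama5 0. The GC box GGGCGG, on either strand (CCGCCC) and with overlapping matches counted, occurs 12 times in the Agrn window, 5 times in that of Hspg2, 2 times in that of Lamb1 and 0 times in that of Lamb2, and 35.7% of all windows hold it. These 2 motifs cannot overlap each other. A match describes letters only.

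Of the other laminin chain genes, Lama3 and Lamb3, chains of epithelial anchoring laminin, stayed at or under 2.16 and 0.589 CPM. Of the 5 tested other chains 2 were higher and 0 lower, beside 11.8% of all tested genes called higher and 12.5% lower. Lama2, the muscle and nerve sheath alpha chain, measured 1.34, 1.01 and 2.24 CPM in Scramble and 4.68, 2.42 and 3.02 CPM in JAG2KO (log2 change 1.14, edgeR adjusted p = 0.0304). Lama3 measured 1.04, 0.367 and 0.382 CPM in Scramble and 2.16, 1.04 and 2.01 CPM in JAG2KO, with 1 JAG2KO library inside the Scramble range (log2 change 1.53, edgeR adjusted p = 0.0340). Both calls ended with the GC and length trends removed and without Scramble replicate 2, JagKO2 or JagKO4, that of Lama2 also without Scramble replicate 1 and that of Lama3 also without Scramble replicate 3 (edgeR adjusted p = 0.0563 to 0.116). Lamc3 measured 0.181 to 0.676 CPM over all libraries, and Lama1 had 2, 6 and 8 counts in Scramble and 0 in every JAG2KO library. Markers of muscle, fat and nerve sheath cells, which make Lama2, summed to 12.9 to 39.5 CPM in Scramble and 53.6, 16.4 and 95.4 CPM in JagKO2, JagKO3 and JagKO4. Their part in the Lama2 level was not tested.

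Among collagens of the basement membrane the type XVIII gene rose most. Of 9 listed genes 5 were tested, and 3 were higher and 0 lower, beside 11.8% and 12.5% of all tested genes. The type IV chains Col4a1 and Col4a2, to which nidogen binds, had log2 changes of 0.06 and -0.12 (edgeR adjusted p = 0.631 and 0.199). Col18a1, the source of endostatin, rose from 669 ± 40.1 to 1504 ± 236 CPM (SD, n = 3 each; log2 change 1.17, edgeR adjusted p = 5.76e-06). Col15a1 rose by 0.93 and the anchoring fibril gene Col7a1 by 0.51 on the log2 scale. Col15a1 was highest in JagKO2, at 17.7 CPM, the library with most pericyte and fibroblast marker RNA, and the part of such cells was not tested. Col7a1 lost its call with the GC and length trends removed (log2 change 0.31, edgeR adjusted p = 0.101) and without Scramble replicate 2 or JagKO4 (edgeR adjusted p = 0.0561 and 0.0672).

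Among 15 tested other components of the sheet, 4 were higher and 3 lower, beside 11.8% and 12.5% of all tested genes. The collagen cross-linking enzyme gene Loxl2 rose from 7.14 ± 1.86 to 129 ± 15.5 CPM (SD, n = 3 each). Npnt, whose product nephronectin binds integrins, fell by 2.06 on the log2 scale (by edgeR, adjusted p = 1.28e-05), and Smoc1, a calcium-binding matrix protein gene, rose by 0.67 (edgeR adjusted p = 0.000264). The peroxidase gene Pxdn, which cross-links type IV collagen, had a log2 change of 0.00 (edgeR adjusted p = 0.987). Pxdn, Col4a1 and Col4a2 were picked by role after their values were seen.

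Of 15 tested receptor and receptor-linked genes for laminins and agrin, 3 were higher and 6 lower. Over all tested genes 11.8% were higher and 12.5% lower. All 6 that fell encode integrin chains, and no test set this against the share of integrin genes in the list. The laminin receptor chain gene Itga7 fell from 28.5 ± 2.59 to 10.3 ± 1.36 CPM (SD, n = 3 each; log2 change -1.47, edgeR adjusted p = 5.45e-06). Itga2, of a collagen and laminin receptor, fell by 1.74 and Itga6 by 0.32 on the log2 scale (by edgeR, adjusted p = 1.06e-05 and 0.00669). The others, named after their values were seen, were Itga3 (-0.31), Itgb1 (-0.23) and Itgb4 (-0.68). The 3 higher genes, also named afterwards, were the agrin receptor gene Lrp4 (log2 change 0.73), the Lama5 receptor gene Bcam (1.28) and the utrophin gene Utrn (0.21). The kinase gene Musk, the partner of Lrp4 in agrin signalling, had 0 counts in every library, which allows at most 0.0811 CPM, and dystroglycan (Dag1) had a log2 change of -0.01 (edgeR adjusted p = 0.926). Without Scramble replicate 1 or JagKO4, 5 and 4 genes of this list were called, in fits that called 17.1% and 17.4% of all tested genes.

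Genes that build or edit heparan sulfate split, with 5 of 22 tested higher and 4 lower, beside 11.8% and 12.5% of all tested genes. The sulfate donor transporter gene Slc35b2 rose by 0.59, the sulfatase gene Sulf2 by 0.46 and the heparanase gene Hpse by 0.91 on the log2 scale (by edgeR, adjusted p = 0.000215, 0.00148 and 0.00176). Among 8 tested cell surface heparan sulfate proteoglycans 2 were higher and 1 lower, beside the same shares. The glypican gene Gpc1 fell from 327 ± 18.7 to 223 ± 16.4 CPM, with 18.9% of its exon length shared with the opposite-strand gene Ankmy1, while Gpc4 and Sdc3, at 2.17 ± 0.467 and 5.18 ± 0.885 CPM in JAG2KO (SD, n = 3 each), rose by 1.45 and 0.81 on the log2 scale. Sdc3 missed the threshold without Scramble replicate 3 (edgeR adjusted p = 0.0516).

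**Figure D5:**
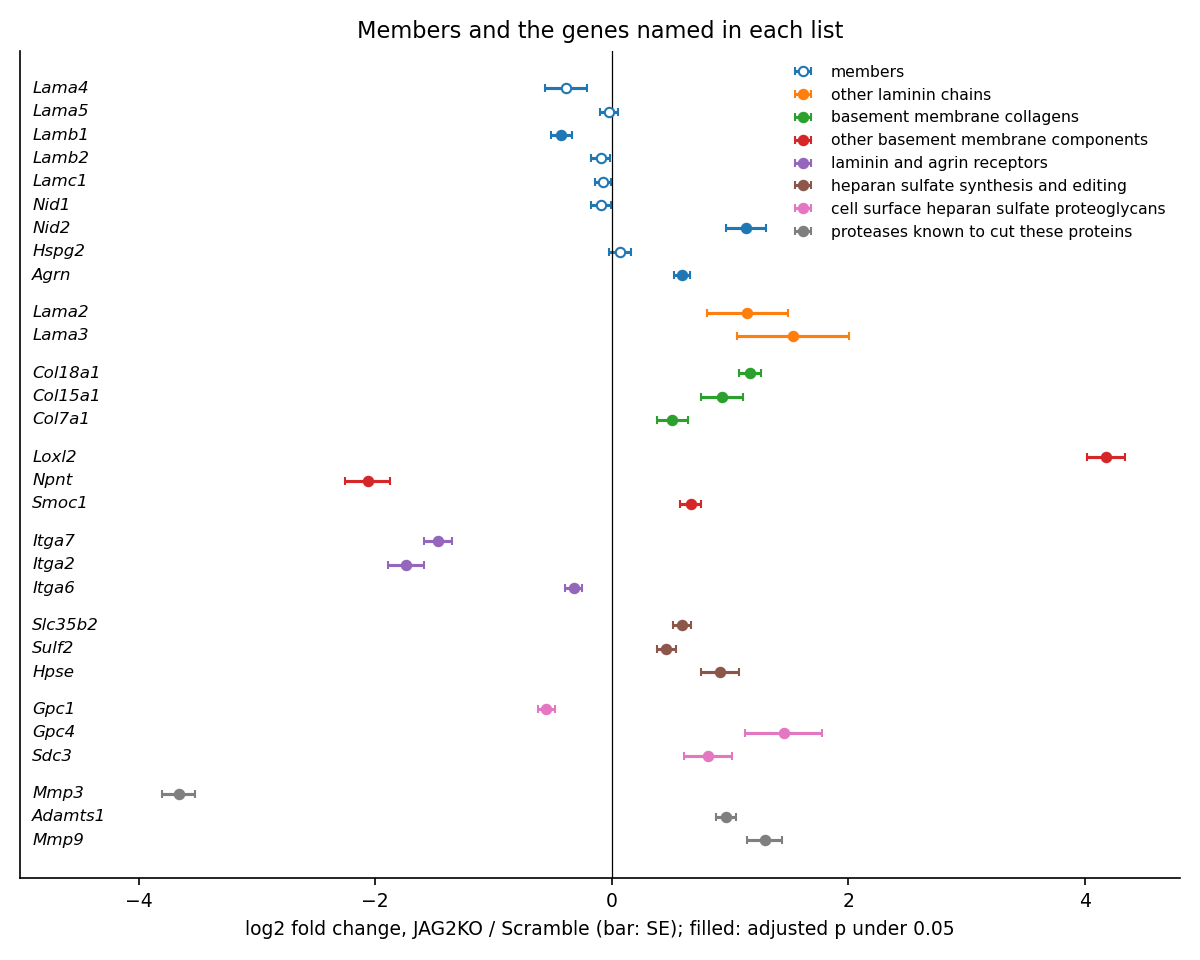
Log2 fold change (JAG2KO over Scramble) with its standard error for the 9 genes and genes named by rule in the lists around them, coloured by list; filled points have an adjusted p under 0.05. The 9 genes lie between -0.43 and 1.13, whereas Loxl2 is at 4.18 and Mmp3 at -3.66.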

How the data were processed

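PolyA RNA of 6 libraries, 3 Scramble and 3 JAG2KO, was measured. Whole-number counts for each gene in each library were deposited by the authors, from tools that the submitters' processing notes name as STAR 2.7.7a and HTSeq 0.11.2; settings, build, annotation and strand were not given in the sources used here. Columns were tied to groups by name. The Scramble columns carry the titles' numbers, whereas the JagKO columns run from 2 to 4 and the titles from 1 to 3, so these have no replicate number.

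Testing used edgeR 4.0.16 (R 4.3.3): filterByExpr (minimum count 10, minimum total 15), TMM factors, the quasi-likelihood F test and Benjamini-Hochberg adjustment over 16049 genes. CPM uses TMM-scaled library sizes; 3 counts were worth 0.0680 to 0.0811 CPM. The standard error is the log2 change divided by the square root of F. Lengths, GC content and positions come from GENCODE M21. Ratios were tested with scipy 1.17.1.

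Members and gene lists were chosen with earlier results of these data known. Named were all 9 members, the other laminin chains and, per list, up to 3 called genes with the smallest p. Other settings tried were DESeq2 1.42.0, limma-voom (limma 3.58.1), RLE factors, unscaled library totals, omission of the filter, a minimum of 1 CPM in 3 libraries, removal of GC and length trends (natural splines, 5 degrees of freedom; 16038 genes) and each library left out. Some genes of the lists are not reported here. The procedures were tested on simulated counts.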

Additional observations from a re-analysis of the deposited data

How the results depend on the processing

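Agrn, Nid2 and Lamb1 kept their direction and call under all 13 alternatives, with log2 changes of 0.41 to 0.64, 1.07 to 1.23 and -0.54 to -0.36. The count of the 9 genes called higher was 2 in each. The count called lower, 1 in the fit reported, was 2 without a low-count filter (Lama4 added, adjusted p = 0.0124), 3 with GC and length trends removed, and 1 to 2 with a library left out. With a library left out, Lama5 ranged from -0.074 to 0.038, above 0 without Scramble replicate 2 (0.038) or JagKO4 (0.026), and Hspg2 from -0.010 to 0.145, below 0 without Scramble replicate 1 (-0.010) or JagKO2 (-0.0071). Hspg2 was also below 0 with the trends removed (-0.19). None of these passed the threshold. Among other laminin chains 0 genes were called with the trends removed and 0 to 2 with a library left out. Without a low-count filter 11 of the 19 listed other components were called, in a fit that called 15.1% of 29041 genes. In the fit reported, 15 of the 19 were tested and 7 called. The receptor list gave 4 to 8 calls with a library left out. Calls over all genes ranged from 2705 to 4388. The 6 log2 ratio differences moved by less than the larger of the 2 groups' SDs. Lama5 to Lama4 ranged from 0.19 (without JagKO3) to 0.61 (without JagKO2), and alpha to gamma turned to -0.027 without Scramble replicate 1. The causes were not tested. No paired analysis was possible because the labels tie no Scramble library to a JAG2KO library. Lama1, Lamb3 and Lamc3 had at most 26 counts in any library.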

Other observations

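Genes of proteases that can cut these proteins, a list not described above, moved in both directions. Of 16 tested, 6 were higher and 5 lower, beside 11.8% and 12.5% of all tested genes. The stromelysin gene Mmp3, whose product cleaves laminin, nidogen and perlecan, fell from 799 ± 145 to 63.1 ± 9.16 CPM (SD, n = 3 each; log2 change -3.66, edgeR adjusted p = 9.36e-09). Adamts1 rose from 168 ± 11.01 to 329 ± 37.7 CPM and the gelatinase gene Mmp9 from 14.0 ± 2.05 to 34.3 ± 6.96 CPM (SD, n = 3 each; edgeR adjusted p = 1.12e-05 and 6.74e-05). Prss12 encodes neurotrypsin, the protease known for cutting agrin, and was picked after its values were seen. It measured 2.02, 1.40 and 1.09 CPM in Scramble and 0.243, 0.240 and 0.185 CPM in JagKO2, JagKO3 and JagKO4 (log2 change -2.75, SE 0.44, edgeR adjusted p = 0.000793), opposite in direction to Agrn.

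Of 12 macrophage markers 4 were higher and 1 lower, beside 11.8% and 12.5% of all tested genes. These markers summed to more CPM in each JAG2KO library than in any Scramble library. The sort took GFP-positive, CD45-negative cells, a gate that should remove macrophages. The part of macrophages in the Mmp9 value was not tested.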
